A study of Danio rerio with 6 samples.

Results

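Eye field transcription factors and lens crystallins were followed on 6 whole-embryo arrays, as all probe sets whose single platform gene symbol named a beta or gamma crystallin, the alpha crystallin cryaa, or a gene of the rx, six3, six6, six7 or vsx families. The rule found 23 of the 15617 probe sets of the table, which stood for 21 of 8793 named genes: 12 probe sets for as many crystallin-family genes, and 11 for 9 eye field factors. Of the 3 rx genes all were found, and of the vsx genes only vsx1. The rule uses gene symbols and no measured value, but it was set with earlier results of these data known. Messenger RNA came from zebrafish embryos labelled as prdm1 null mutants at 25 hours post fertilization (hpf), 3 samples, and from wild-type embryos of the same age, 3 samples. The design text names the mutated gene prdm1a, whose product is a zinc finger transcription factor, and the sources used here do not name the allele. Embryos were told apart by eye from their phenotype. The sources used here do not say how many embryos made up a sample or whether the genotypes were clutch mates. The mutated gene itself is not analysed here, since neither prdm1a nor prdm1b names a probe set.

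The vertebrate eye starts as a field of cells in the anterior neural plate, marked by homeodomain factors such as those encoded by the rx, six3 and six6 genes. In zebrafish rx3 is needed for the optic vesicles to bulge out of the forebrain, and rx1 and rx2 act in the retina that forms from them. The lens arises from the surface ectoderm, and its fibre cells fill with crystallins, the transparent structural proteins of the lens. Crystallin messages climb steeply while lens fibres differentiate, so their level in a whole embryo is sensitive to its exact stage. Values below are log2 signals of the deposited MAS5 intensities, and a log2 fold change is mutant minus wild type.

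The 6 arrays were scaled alike, with medians from 132 to 148. Arrays of different genotype correlated at 0.923 to 0.949, mutant arrays with one another at 0.967 to 0.969 and wild-type arrays at 0.948 to 0.976. As a check of the labelled tissue, fixed marker lists of brain (23 genes), muscle (12), blood (7), epidermis (7) and yolk (5) were read. The brightest probe set of every gene found lay above the filter on low signals. Dimmer probe sets of the same genes were not checked. Control probe sets for actc1b gave a ratio of 3' to 5' signal, read as a sign of RNA quality, that ran from 26.2 to 38.8 in the mutant and from 55.4 to 92.4 in the wild type. That of gapdhs ran from 3.28 to 7.65 in the mutant and from 9.16 to 14.5 in the wild type. For both ratios every mutant array lay below every wild-type array. Fits below with a ratio as a covariate therefore cannot cleanly separate it from genotype. Mutant replicate 1 had the lowest actc1b ratio and wild type replicate 3 the highest of both.

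Of the 23 probe sets, 12 passed the filter, which removed the 30% of probe sets with the lowest mean signal over all 6 arrays (below a log2 signal of 5.36). They were 4 of 12 crystallin-family probe sets (cryba4, crybb1, crygmxl2 and crybg1a) and 8 of 11 for eye field factors (rx2 with 2 probe sets, rx3, six3a, six3b, six6a, six6b and vsx1). The other 11 had mean log2 signals from 1.28 to 4.93. They were the probe sets of cryaa, a small heat shock protein of the lens, of crygs1, crygs2, crygm2c, crygm2f, crygm4 and crygm6, structural gamma crystallins, of crybg1b, of rx1, and both of six7. None exceeded a signal of 45.9 on any array, and none separated the genotypes. Cryaa, for example, had 3.41, 3.08 and 4.16 in the mutant, against 2.92, 3.41 and 2.94 in the wild type. Such dim signals have no dependable ratio, and no detection calls were used here, so whether these messages were present was not judged.

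**Figure D1:**
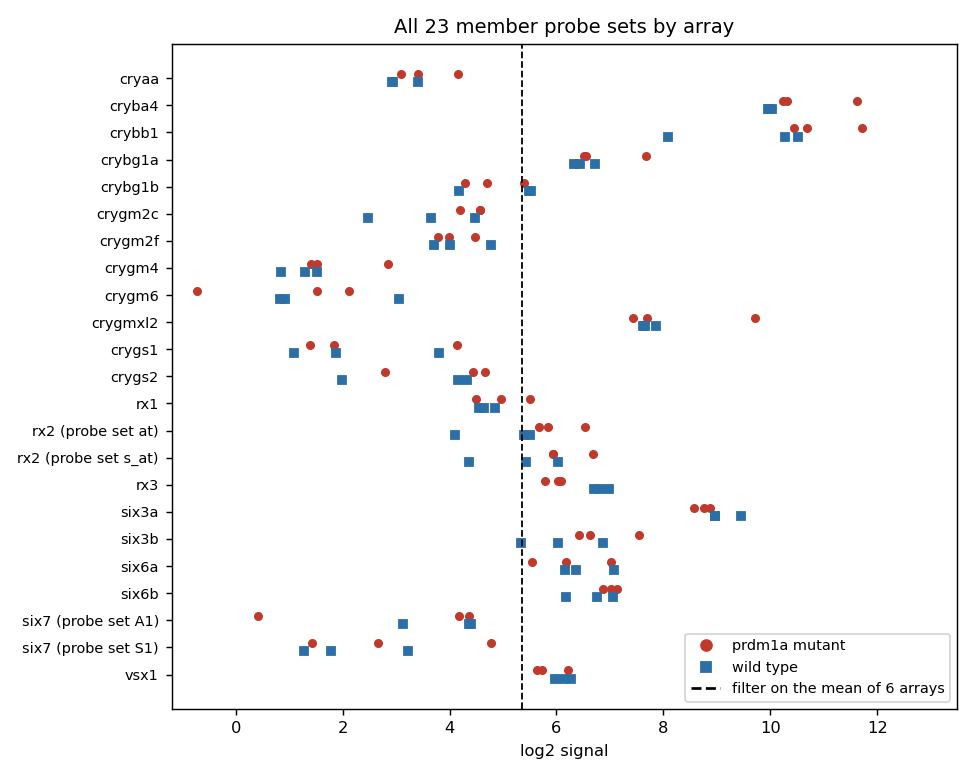
Log2 signal of all 23 probe sets, 1 row each, in 3 prdm1a mutant arrays (circles) and 3 wild-type arrays (squares), with the filter level of 5.36 as a dashed line. Signals of different probe sets depend on their probes and are not compared. The rows of cryba4, crybb1 and crygmxl2 each hold 1 mutant array far to the right, and that of crybb1 also 1 wild-type array far to the left.

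None of the 12 probe sets differed between genotypes past an adjusted p of 0.05 in limma, where 368 of all 10851 tested probe sets (3.39%) did, 1.54% higher and 1.85% lower in the mutant. At an unadjusted p of 0.05, 3 of 12 lay below it (cryba4, crybb1 and rx3), against 20.6% of all tested probe sets. Arrays of the genotypes did not overlap for 4 of 12 against 27% of all. Of these, cryba4 and an rx2 probe set were higher in the mutant, against 13.2% of all, and rx3 and six3a lower, against 13.8%. The rx2 probe set passed the filter only through its mutant arrays, since its wild-type mean of 5.00 lay under the filter level. Whether these shares differ from those of the rest of the table was not tested.

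Of the eye field factors, rx3 came closest to a call. Its log2 signal was 5.78, 6.03 and 6.09 in the mutant, against 6.82, 6.70 and 6.98 in the wild type. Every mutant array lay below every wild-type array, and both groups were tight. The log2 fold change was -0.86 (95% interval -1.42 to -0.30), a 1.82-fold lower mean, with a limma adjusted p of 0.0954. It kept its sign under the 18 alternatives that tested it and passed under 2 of them, at a limma adjusted p of 0.0490 with no trend in the variance and of 0.0459 with array weights. With the actc1b 3' over 5' ratio as a covariate it was -0.48 (limma adjusted p = 0.735), and with the gapdhs ratio -0.93 (limma adjusted p = 0.482). In bulk samples, fewer cells of a type and less RNA per cell cannot be told apart.

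The retinal factor rx2 lay on the other side of 0. Its probe set without cross-matching probes by its suffix had 5.84, 5.67 and 6.53 in the mutant, against 5.50, 5.39 and 4.10 in the wild type. The groups did not overlap, but wild type replicate 3 stood far below the other arrays. Its second probe set, which shares the same transcript and is not independent, had 5.94, 5.93 and 6.68 in the mutant, against 6.03, 5.43 and 4.37 in the wild type, and overlapped. The wild-type means of these probe sets, 5.00 and 5.27, lay under the filter level of 5.36, and the mutant means, 6.01 and 6.18, above it. Both thus passed the filter through their mutant arrays, so a higher mutant signal is not independent of the filter. Log2 fold changes were 1.02 (95% interval -0.01 to 2.04) and 0.91 (-0.12 to 1.94), with limma adjusted p-values of 0.245 and 0.296. Leaving out wild type replicate 3 gave 0.56 and 0.45. The gapdhs ratio as a covariate gave 0.04 and -0.13, and the actc1b ratio -0.18 and -0.27.

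The paired genes six3a and six3b encode homeodomain factors of the forebrain and eye, and their values lay on opposite sides of 0. For six3a the signal was 8.75, 8.58 and 8.87 in the mutant, against 9.45, 8.96 and 8.96 in the wild type. The groups were separated by a narrow margin, with wild type replicate 1 highest. The log2 fold change was -0.39 (95% interval -0.81 to 0.04, limma adjusted p = 0.283). For six3b the signal was 6.41, 6.63 and 7.53 in the mutant, against 6.87, 6.02 and 5.34 in the wild type. Those groups overlapped, with mutant replicate 3 highest and wild type replicate 3 lowest. The log2 fold change was 0.78 (95% interval -0.20 to 1.77, limma adjusted p = 0.345). Leaving out wild type replicate 3 gave 0.41, the gapdhs ratio as a covariate gave -0.40, and the actc1b ratio gave 0.02. The difference between the genes was not tested.

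Six6 factors act in retinal progenitors, and vsx1 in retinal bipolar cells and spinal interneurons. The six6b signal was 7.02, 7.12 and 6.88 in the mutant, against 7.06, 6.17 and 6.76 in the wild type. That of six6a was 6.18, 7.01 and 5.54 in the mutant, against 7.08, 6.16 and 6.37 in the wild type. That of vsx1 was 5.73, 5.63 and 6.21 in the mutant, against 6.27, 6.15 and 5.96 in the wild type. All 3 overlapped between genotypes. Log2 fold changes were 0.34 for six6b, -0.29 for six6a and -0.27 for vsx1 (limma adjusted p = 0.525, 0.737 and 0.648). Over the 8 eye field probe sets tested, 4 were above 0 and 4 below, with a median of 0.04. Over all 11 the median difference was 0.31, which takes in 3 probe sets under the filter with no dependable ratio. With rx2 counted once, by its brighter probe set, 3 of 7 genes were above 0 and 4 below, with a median of -0.27. Over all tested probe sets 51.6% were above 0, and the median was 0.02.

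**Figure D2:**
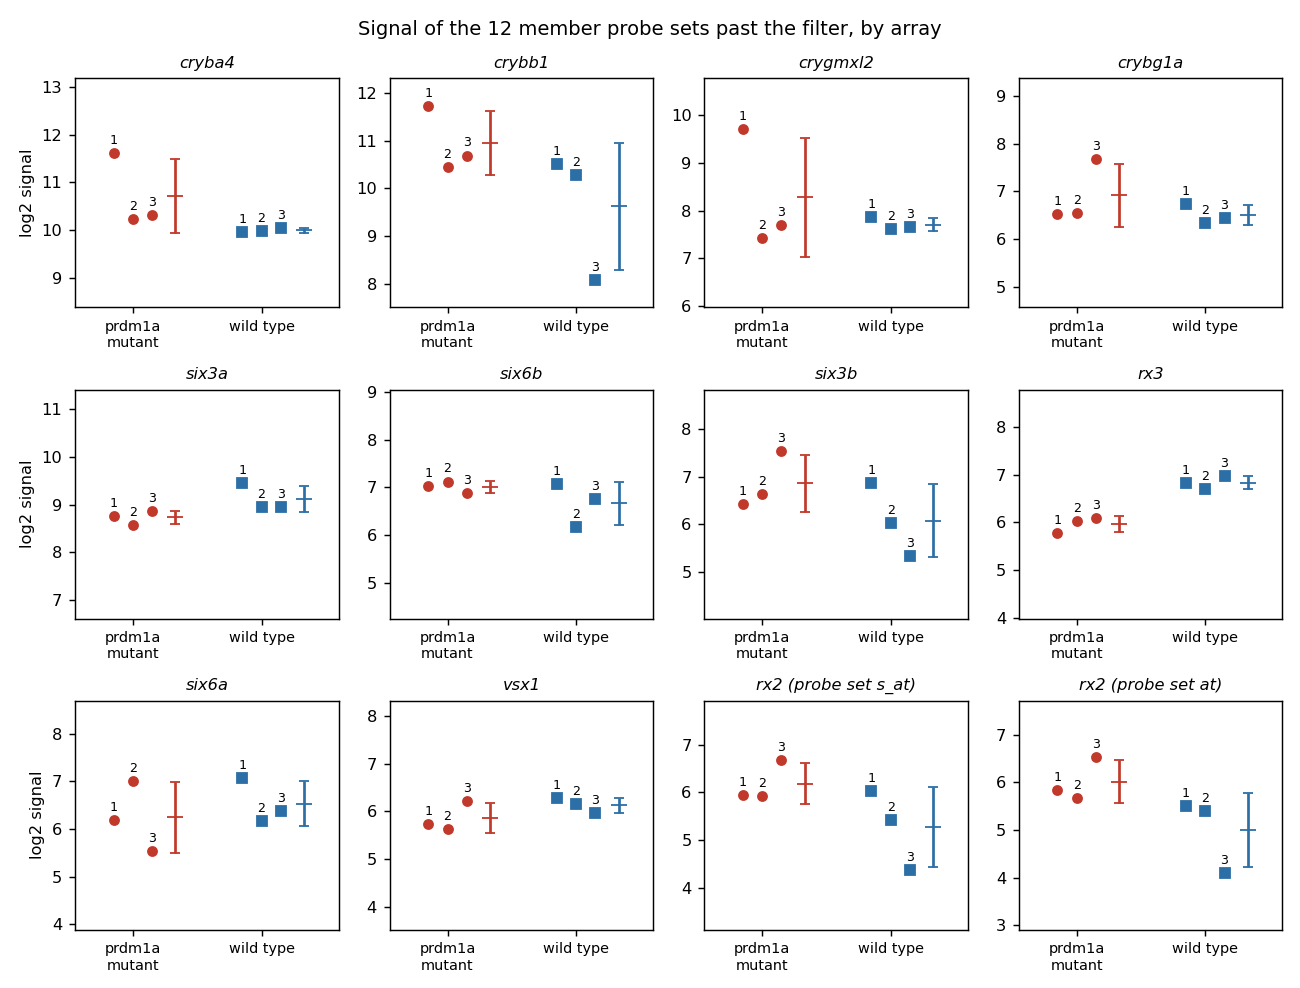
Log2 signal of the 12 probe sets past the filter, with prdm1a mutant arrays (circles) left of wild-type arrays (squares), replicate numbers above the points, and the mean with 1 SD (n = 3) to the right of each group. All panels span the same range of log2 units. Mutant replicate 1 stands above the other arrays for cryba4, crybb1 and crygmxl2, and wild type replicate 3 below them for crybb1 and rx2.

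Of the 3 lens crystallins past the filter, cryba4 and crybb1 were bright and crygmxl2 less so. Their variation lay mainly between replicates of a genotype. The beta crystallin cryba4 had 11.61, 10.24 and 10.31 in the mutant, against 9.95, 9.98 and 10.04 in the wild type. Its neighbour crybb1, another beta crystallin with no gene between them in the GRCz12tu gene table, had 11.72, 10.45 and 10.69 in the mutant, against 10.51, 10.27 and 8.09 in the wild type. The gamma crystallin of the M group crygmxl2 had 9.71, 7.43 and 7.70 in the mutant, against 7.87, 7.61 and 7.65 in the wild type. In all 3 genes mutant replicate 1 was the highest of the 6 arrays. Wild type replicate 3 was low for crybb1 alone of these 3, 4.94-fold below the mean of the other wild-type arrays, while cryba4 in that array was level with them.

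These spreads set only part of the error of the genotype comparison, since limma also borrows variance from the other tested probe sets. Pooled over both genotypes, the replicate SD was 0.55 for cryba4, 1.06 for crybb1 and 0.89 for crygmxl2. Limma's standard errors were 0.32, 0.59 and 0.51, smaller than these spreads alone would give. Intervals from the spreads alone were not computed, so those of cryba4 and crybb1, which barely clear 0, rest on the borrowed variance. Log2 fold changes were 0.73 for cryba4 (95% interval 0.00 to 1.45), 1.33 for crybb1 (0.00 to 2.65) and 0.57 for crygmxl2 (-0.58 to 1.72), with limma adjusted p-values of 0.242, 0.242 and 0.571. Without mutant replicate 1 they were 0.28, 0.95 and -0.14, and without wild type replicate 3 crybb1 was at 0.56. With the actc1b ratio as a covariate cryba4, crybb1 and crygmxl2 were at -0.14, -1.68 and -1.06. With the gapdhs ratio they were at 1.12, 0.82 and 1.01, and none passed with either ratio. Neither ratio overlapped between the genotypes, so its part and that of genotype cannot be told apart. The fourth crystallin-family gene, crybg1a, carries beta/gamma crystallin domains but is no structural lens protein. Its signal was 6.51, 6.55 and 7.68 in the mutant, against 6.73, 6.33 and 6.44 in the wild type, a log2 fold change of 0.41 (limma adjusted p = 0.538). Here mutant replicate 3 was the high array, and without it the value was 0.03. The median over the 4 probe sets was 0.65, beside 0.02 over all tested probe sets. Over all 12 of the crystallin family the median difference was 0.47. That takes in 8 probe sets under the filter, with no dependable ratio, and is not set against the tested probe sets.

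**Figure D3:**
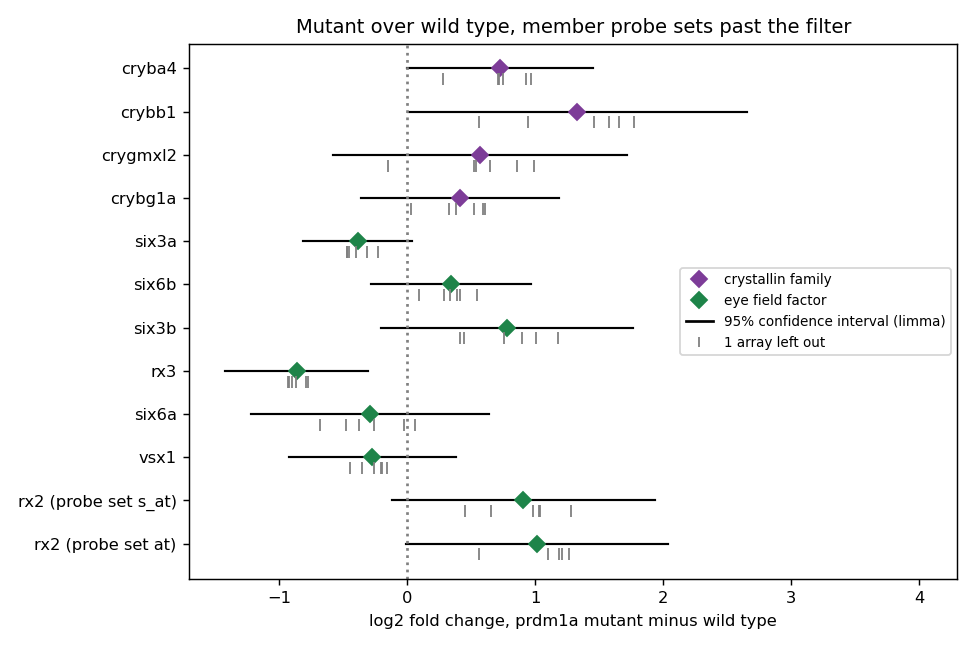
Log2 fold change, prdm1a mutant minus wild type, of the 12 probe sets past the filter (diamonds), with limma's 95% confidence interval (lines) and the values with 1 array left out (grey ticks). The interval of rx3 lies below 0, those of cryba4 and crybb1 start just above 0, and the other intervals hold 0; none passed after adjustment over all probe sets.

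The gap between mutant replicate 1 and the other mutant arrays was examined after these values were seen. Against the mean of mutant replicates 2 and 3 in log2 signal, mutant replicate 1 was 2.53-fold brighter for cryba4, 2.22-fold for crybb1 and 4.43-fold for crygmxl2. Among all 10851 tested probe sets, 128 (1.18%) were more than 1 log2 unit brighter there, which 3 of the 4 crystallin-family probe sets were. Those gaps stood at the 99.6, 99.3 and 99.9 percentiles of all tested probe sets. Another 3 probe sets with a crystallin symbol of the rule lay outside it, since they carry several symbols and cannot tell their genes apart. Of these, 2 were also brightest in mutant replicate 1. One is shared by 7 gamma crystallin genes of the M group and had 9.84, 6.90 and 8.02 in the mutant, against 7.24, 6.74 and 7.42 in the wild type. The other, with 12 symbols of which 11 are of that group, had 12.82, 10.35 and 10.63 in the mutant, against 10.61, 10.46 and 10.58 in the wild type. Mutant replicate 1 was thus 5.21-fold and 5.02-fold brighter than the other mutants. The third, which a crystallin shares with an unrelated gene, lay under the filter, and its signal in mutant replicate 1 was 0.99 times that of the other mutants. How far gamma crystallin messages bind one another's probes was not measured. None of the 8 eye field probe sets had its highest mutant signal in that array, where 30% of all tested probe sets had theirs.

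The SD between replicates was large for many of these genes. In the mutant it was 0.77 for cryba4, 0.68 for crybb1 and 1.25 for crygmxl2, against 0.22 for the median tested probe set. In the wild type it was 0.04 for cryba4, 1.34 for crybb1 and 0.14 for crygmxl2, against a median of 0.24. The SD lay above the 90th percentile of all tested probe sets for 6 of 12 in the mutant and 4 of 12 in the wild type. The SD of rx3, 0.16 among mutant and 0.14 among wild-type arrays, was under both medians. Dimmer probe sets vary more on a log scale. This applies to the eye field factors more than to the bright crystallins cryba4 and crybb1. The lens crystallin crygmxl2, with a mutant SD of 1.25, had a lower mean signal than cryba4, crybb1 and six3a.

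As a sign of stage, the arrays were set against a list of genes known to climb as neurons, muscle and blood mature. The other list was of tailbud and segment clock genes, known to fall as somite formation ends. Of the latter, her1, her7, mespaa and mespba, named after their values were seen, lay under the filter, among others, and were not tested. Of 17 maturation genes tested, 13 had their highest mutant signal in mutant replicate 1, as had 30% of all tested probe sets. Of 12 segmentation genes, 7 had their lowest mutant signal there, as had 37.1% of all. Examples of these 7, chosen after their values were seen, are tbx6 (6.49 in mutant replicate 1, 7.56 and 7.25 in the other mutants) and msgn1 (8.05, against 9.21 and 8.34). Going the other way, 3 of the 12 had their highest mutant signal there, against 30% of all. One of them, also chosen after its values were seen, is fgf8a (6.57, against 5.94 and 6.18). Mutant replicate 1, with the highest lens crystallin signals, had the highest mean of the maturation list, 0.24 above the gene means over all 6 arrays. It also had the lowest mean of the segmentation list, 0.24 below them. Values centred on all 6 arrays take in any difference between the genotypes, so these ranks do not compare replicates alone. Other lens and eye genes, read below, were counted in mutant replicate 1 only where they passed the filter. Under the filter, some lens and retina genes were brightest of the mutants there and others dimmest. Of 21 further lens and placode genes tested, 3 had their highest mutant signal in mutant replicate 1 and 10 their lowest. Of 32 further eye field and retina genes tested, 8 had their highest there and 12 their lowest. Among all tested probe sets, 30% had their highest mutant signal in that array and 37.1% their lowest. Whether these lists differ from those shares was not tested. In the wild type, 13 of 17 maturation genes were highest in replicate 3, the array with the dim crybb1, rx2 and six3b, against 41.3% of all tested probe sets. There 7 of 12 segmentation genes were lowest, against 34.8% of all. Its maturation mean, 0.23, was close to that of mutant replicate 1, and its segmentation mean was -0.05. Yet the mean of crybb1, cryba4 and crygmxl2 was the lowest of the 6 arrays there, at -0.95, mainly through crybb1. The crystallins cryba4 and crygmxl2 were not raised in that array. Muscle genes are among the maturation list, and 1 of its members, mylz3 (named after its value was seen), passed between genotypes. Whether the arrays differ in stage was not tested.

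**Figure D4:**
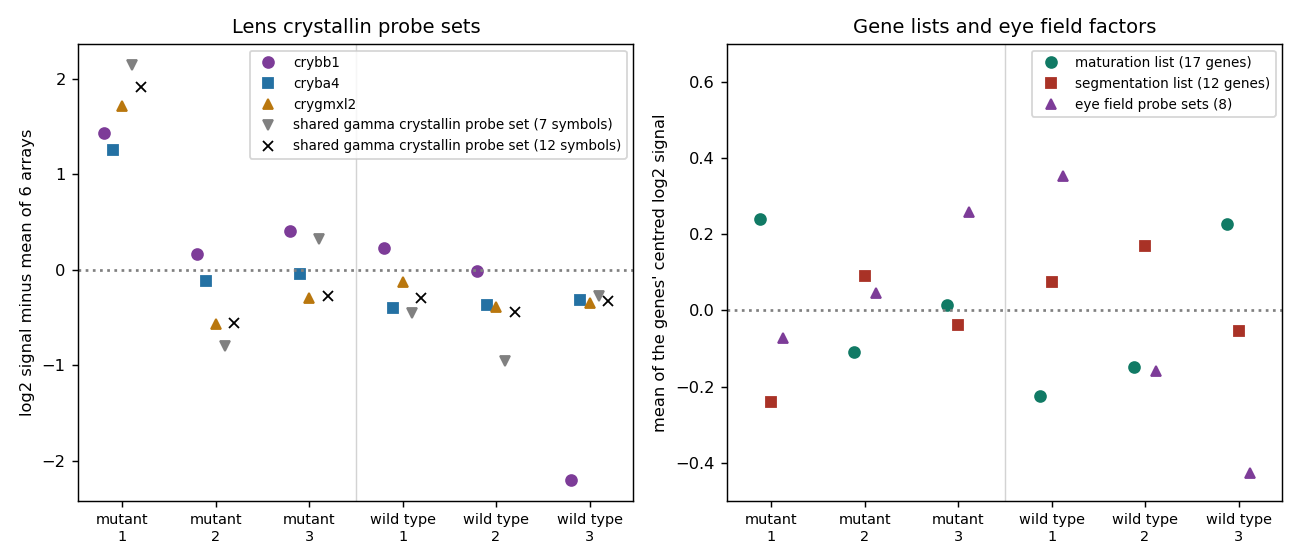
Left, log2 signal minus the mean of 6 arrays for crybb1, cryba4, crygmxl2 and 2 probe sets shared by several gamma crystallins, in prdm1a mutant and wild-type replicates. Right, the mean of such centred signals over 17 maturation genes, 12 segmentation genes and 8 eye field probe sets. All 5 crystallin probe sets are highest in mutant replicate 1, where the maturation list is at 0.24 and the segmentation list at -0.24. In wild type replicate 3, where crybb1 is lowest, they are at 0.23 and -0.05.

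Other genes of the eye and lens were read beside all tested probe sets, of which 3.39% passed and 51.6% were above 0. At that share, a lack of calls in lists of this size is no result about eye or lens genes. Of 44 further eye field and retina genes on the array, 32 were tested and none passed in limma, with 20 above 0 and a median log2 fold change of 0.12. The smallest p-values there were those of the homeodomain gene meis1b (0.47, limma adjusted p = 0.0643), of rbp4l (0.51, 0.124) and of ptf1a, which acts in amacrine and horizontal cells (0.96, 0.133). The samples were whole embryos, and which cells carried the signals of these eye and lens lists was not measured. The eye regulators pax6a and pax6b were at 0.22 and 0.53 (limma adjusted p = 0.600 and 0.159), chosen after their values were seen. Of 28 further lens and placode genes, 21 were tested and none passed, with 11 above 0 and a median of 0.07. The smallest p-values were those of six4a (1.02, limma adjusted p = 0.0771), the small heat shock gene hspb1 (0.54, 0.124) and crym (0.93, 0.142). Without mutant replicate 1, six4a passed (1.29, limma adjusted p = 0.0421). With array weights, a fit that called 1416 of all tested probe sets, six4a (limma adjusted p = 0.0210), crym (0.0238), meis1b (0.0143) and ptf1a (0.0418) passed, at log2 fold changes of 1.03, 1.17, 0.49 and 1.02. The lens fibre genes bfsp2, of the beaded filament, and gja8b and gja3, of gap junctions, lay under the filter, and were also chosen after their values were seen. In mutant replicate 1 bfsp2 had 5.69, against 3.90 and 4.29 in the other mutants, while wild type replicate 3 had 5.83. Likewise gja8b had 5.67, against 2.74 and 3.98, and gja3 had 4.66, against 4.28 and 3.96. Of the other lens and placode genes under the filter, cryaba, tdrd7a and six5 were lowest of the mutants in that array, and six9 was neither. These dim signals have no dependable ratio.

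Of 6 tested genes of the pigmented epithelium and melanin synthesis, mitfa, the regulator of pigment cell fate, fell (-1.25, limma adjusted p = 0.0273) and the melanosome gene pmelb rose (1.13, 0.0366). Over all tested probe sets 3.39% passed. The clock repressor bhlhe40 was at 0.44 (limma adjusted p = 0.0993; 0.0272 with array weights). Neural crest pigment cells share these genes, and which cells carried the signal was not measured. Both calls ended in 5 of 6 fits that left out 1 array, the exception being wild type replicate 3. The highest limma adjusted p among these was 0.0881 for mitfa and 0.138 for pmelb. The sizes were kept in those fits, between -1.35 and -1.12 for mitfa and between 0.97 and 1.23 for pmelb. The calls also ended with either 3' over 5' ratio as a covariate (up to 0.443 and 0.395), at -1.49 and -1.10 for mitfa and 1.08 and 1.30 for pmelb. They ended with the replicate number as a block too (0.0704 and 0.0739), and that of pmelb without the filter (0.0517).

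Likeness to the crystallins was read as Pearson's r between a probe set and the mean of the 4 crystallin-family probe sets, over deviations from the genotype means in 6 arrays. Of 3825 named probe sets at least as variable as the median tested one, 36 had r above 0.9. The 3 most alike were bhlha9 (0.994), sap30l (0.989) and cd248a (0.986), and none of the 10 highest was an eye or lens gene of the fixed lists. With 6 arrays, and a mean that takes in crybg1a, which was highest in mutant replicate 3, such values are a description only.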

How the data were processed

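The deposited values were linear intensities per probe set that the authors computed with MAS5, per the submitters' processing notes. The sources used here do not state its version, its scaling target or detection calls. Of 15617 probe sets, the platform annotation gave 10802 a single symbol, and all 23 member probe sets matched the RefSeq gene table (GRCz12tu) with no symbol changed. No sequences are shown. Intensities were log2-transformed without offset, 115 control probe sets and the dimmest 30% were removed, and limma 3.58.1 under R 4.3.3 fitted the other 10851 by genotype (lmFit, then eBayes with a trend), Benjamini-Hochberg over all tested. The fit was tested on simulated data. Log2 fold changes had a median standard error of 0.222, and 3 arrays per genotype limit the precision.

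Members and lists were chosen with earlier results of these data known. Named genes were all members, the 3 smallest p-values of each eye, lens and pigment list, and the 10 probe sets most like the crystallins; others are said to be chosen after their values were seen. Each listed gene was read from its brightest probe set. Alternatives were normalization (quantile, median, cyclic loess), offsets of 16 and 64, no filter or 50%, variance models, weights per array, a block by replicate number, control 3' over 5' ratios as covariates, and each array left out. Nothing says that replicates came from separate clutches, so the spread behind each p-value may be technical. Replicate numbers did not pair the arrays (correlations of same-numbered deviations 0.06, 0.05 and -0.07). Figures used matplotlib 3.10.9.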

Additional observations from a re-analysis of the deposited data

How the results depend on the processing

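No eye field or crystallin probe set that was fitted passed under 17 of 19 alternative fits, and 1, rx3, passed without the variance trend and with array weights. How many were fitted depended on the filter, with 12 in the main fit and all 23 without a filter. The count over all tested probe sets, 368, was 1416 with array weights, 44 with the gapdhs and 26 with the actc1b 3' over 5' ratio as a covariate, and 108 to 460 with 1 array left out (lowest without wild type replicate 2, highest without wild type replicate 3). With the replicate block it was 260, with no eye field or crystallin probe set among them. The crystallin median, 0.65, was -0.60 with the actc1b and 0.92 with the gapdhs covariate. It was 0.73 without the crybg1 genes (an alternative chosen after seeing the data) and 0.45 to 0.98 with 1 array left out. The eye field median, 0.04, was -0.27 with 1 probe set per gene, -0.26 with the gapdhs and -0.32 with the actc1b covariate, and -0.08 to 0.26 with 1 array left out. A 50% filter left 1 eye field probe set, six3a, whose own value is the -0.39 that stands in place of a median. The signs of rx3, six3a, six6b and vsx1 held under all alternatives tried, and those of the other members turned under 1 or 2. Neither 3' over 5' ratio overlapped between the genotypes, so in the covariate fits ratio and genotype cannot be told apart. The cause of these shifts was not tested. Signal near the filter level limits rx1, rx2, crybg1b and vsx1, and six7 lay far below it.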
